A study of Mus musculus with 6 samples.

Results

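Postsynaptic density scaffolds are the proteins that hold glutamate receptors in place beneath the membrane of an excitatory synapse, and 10 of their genes were examined: Dlg1, Dlg2, Dlg3, Dlg4, Dlgap1, Dlgap2, Dlgap3, Shank1, Shank2 and Shank3. They were taken by gene symbol from the platform annotation, out of 19938 genes measured, and all 10 were found. Where several probe sets carried the symbol of a gene and no other, the brightest on average over the 6 arrays was taken.

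The cells came from a mouse embryonic stem cell line, made in 129SVEV cells, with GFP knocked into the gene of the transcription factor CTIP2 (Bcl11b) behind an IRES, with the Neo cassette retained. All cultures were floating aggregates grown by the SFEBq method, which had received inhibitors of the TGF-beta receptor and of WNT early in differentiation. CTIP2:GFP+ and CTIP2:GFP- cells were sorted on day 11, day 12 and day 13, and RNA of each fraction was measured on the GeneChip Mouse Gene 1.0 ST array. Each of the 6 samples is 1 array, so each fraction had 3 arrays from different days and no repeated culture of a day. Since the arrays give the mean RNA of a sorted population, fewer cells of a type and less RNA per cell cannot be told apart.

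The 3 families form layers. Dlg proteins, also known as SAP97 (Dlg1), PSD-93 (Dlg2), SAP102 (Dlg3) and PSD-95 (Dlg4), lie nearest the membrane and bind the tails of NMDA receptor subunits and of adhesion molecules through PDZ domains. Dlgap proteins (SAPAPs, of which Dlgap1 is also called GKAP) bind the guanylate kinase-like domain of the Dlg proteins. Shank proteins bind the Dlgap proteins from below and connect them to Homer and to the actin cytoskeleton.

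The values are log2 RMA signals, and a difference is GFP+ minus GFP- on that scale, averaged over the 3 days. The fractions were compared within days by limma, p-values being adjusted over the whole set of 19938 genes (Benjamini-Hochberg, threshold 0.05). The GFP- array of day 13 stood apart from the rest before any comparison. The SD of its signals was 1.11, while the GFP+ arrays had SDs of 1.37 to 1.45 and the 2 remaining GFP- arrays SDs of 1.29 and 1.48. Its correlation with the other arrays was 0.863 to 0.927. Bcl11b itself was higher in GFP+ than in GFP- cells by 1.87 (standard error 0.19, 95% interval 1.41 to 2.33, adjusted p = 0.025 from limma). Without day 13 the difference of Bcl11b was 1.98 and its adjusted p was 0.056, in a setting with 0 of all genes called.

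Of the 10 scaffold genes, Dlg2 and Shank1 passed the test, both higher in GFP+ cells, and these 2 were also the ones over 2-fold higher. Over all genes 159 were called higher and 113 lower, and after a further quantile normalization of the arrays 52 and 99. Among all genes 0.797% were called higher and 1.97% were over 2-fold higher. None of the 10 was lower past the test or over 2-fold lower, where 0.567% and 1.02% of all genes were. At an unadjusted p under 0.05 by limma 5 of the 10 were higher and 0 lower, beside 9.58% and 5.95% of all genes. Dlg3, Dlg4 and Dlgap2 were, with these 2, higher on all 3 days, and for each of these 5 genes every GFP+ array lay above every GFP- array. The share of all genes was 16.9% for the first count and 9.05% for the second. With the probe sets used, Dlgap3 alone was lower on all 3 days (21.4% of all genes), and for 0 scaffold genes did every GFP+ array lie below every GFP- array (7.85% of all genes). The median difference of the 10 genes was 0.66, beside -0.05 over all genes, with daily medians of 0.82, 0.57 and 0.66 from day 11 to day 13.

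**Figure D1:**
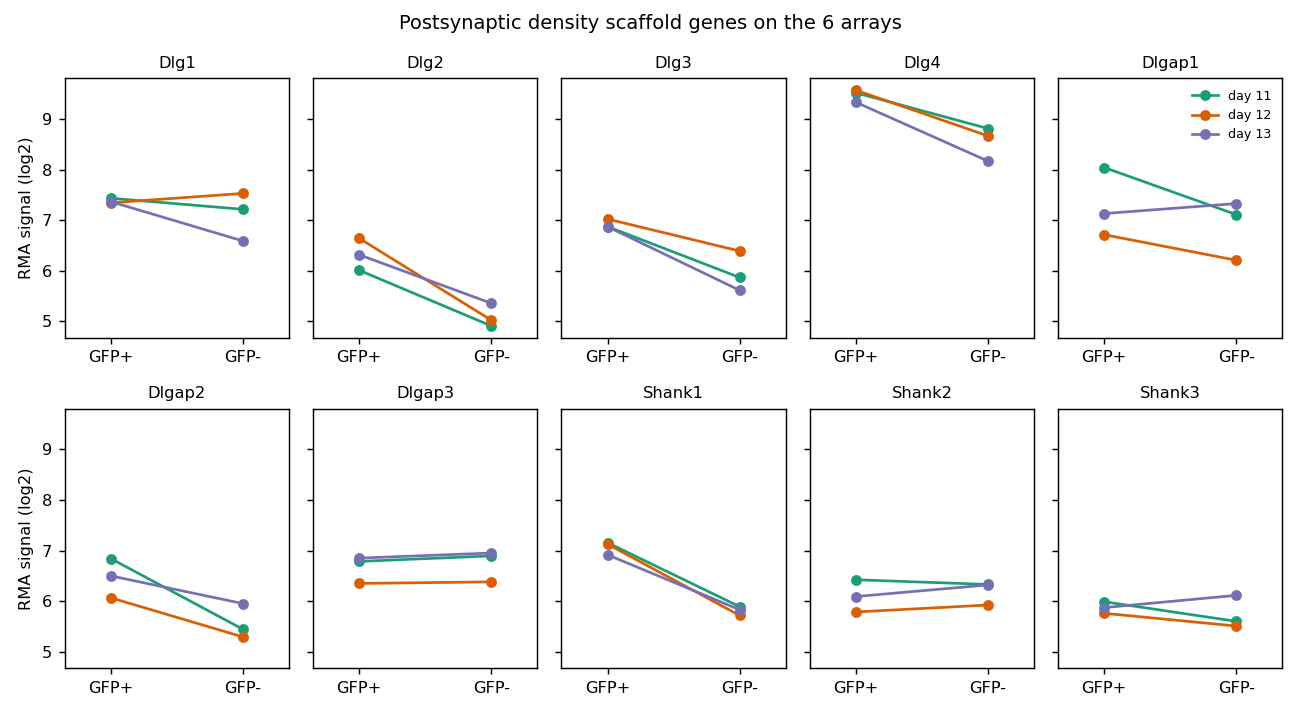
RMA signal (y axis, log2) of the 10 scaffold genes by sorted fraction, GFP+ left and GFP- right (x axis), with 1 point per array and lines joining the arrays of 1 day. In the panels of Dlg2, Dlg3, Dlg4, Dlgap2 and Shank1 every GFP+ point lies above every GFP- point, and in the other 5 panels the fractions overlap.

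Among the Dlg genes, Dlg2 had signals of 6.01, 6.64 and 6.32 in GFP+ cells on day 11, day 12 and day 13, against 4.91, 5.02 and 5.36 in GFP- cells. The fractions did not overlap, and the gap between the lowest GFP+ and the highest GFP- array was 0.65. The difference of 1.23 (2.34-fold, standard error 0.18) passed the test (adjusted p = 0.045 from limma). The GFP- mean of Dlg2, 5.10, lay at the 39.2th percentile of all probe set values and under their median of 5.41, so how much of it is background is unknown. The study picked Dlg2 as a candidate on these same arrays, so its rise is not independent evidence. It then excluded Dlg2 because its expression is mainly in synapses and axons. Dlg2 lost its call without day 13 (1.36, adjusted p = 0.068), with no replicate block (adjusted p = 0.067) and after median centring of the arrays (1.28, adjusted p = 0.11). Without day 13, and also after median centring, 0 of all genes were called. Dlg2 kept the call without only the day 13 GFP- array and with no replicate block (1.36, adjusted p = 0.0405 from limma).

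Dlg3, a scaffold known from early synapses, had signals of 6.88, 7.03 and 6.87 in GFP+ cells on day 11, day 12 and day 13, against 5.87, 6.39 and 5.62 in GFP- cells. Its difference was 0.97 (1.95-fold, standard error 0.17, 95% interval 0.55 to 1.39), and it did not pass the test (adjusted p = 0.066 from limma). The 3 GFP+ arrays lay within an SD of 0.09, while the GFP- arrays had an SD of 0.40. Dlg4, the most studied scaffold of mature excitatory synapses, had signals of 9.52, 9.57 and 9.34 in GFP+ cells and of 8.82, 8.67 and 8.17 in GFP- cells of the same days. Its difference was 0.92 (1.90-fold, standard error 0.15, 95% interval 0.55 to 1.30), with an adjusted p of 0.060 from limma. Without day 12 both genes were past the test, Dlg3 at 1.13 (adjusted p = 0.015) and Dlg4 at 0.93 (adjusted p = 0.037). In that setting 930 of all genes were called higher, against 159 with all days. Neither gene passed without day 11 (adjusted p = 0.105 for Dlg3 and 0.060 for Dlg4 from limma) or without day 13 (0.104 and 0.086), where 0 of all genes were called.

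Dlg1, which also acts at the lateral membrane of epithelial cells, had signals of 7.44, 7.35 and 7.37 in GFP+ cells on day 11, day 12 and day 13, against 7.22, 7.53 and 6.59 in GFP- cells. Its difference was 0.27 (95% interval -0.25 to 0.79, adjusted p = 0.61 from limma). By day it was 0.22, -0.19 and 0.78, and the fractions overlapped. It was 0.017 without day 13, 0.50 without day 12, and 0.0091 without the day 13 GFP- array in a fit with no replicate block. On the probe sets used, Dlg1, Dlgap1, Shank2 and Shank3 had opposite signs on different days, as did 61.6% of all genes. The GFP- signal of day 13 was the lowest for Dlg1, Dlg3 and Dlg4, the case for 37.7% of all genes. For Dlg2, all 3 Dlgap genes and Shank3 it was the highest GFP- signal, the case for 43% of all genes. These values come from the array that stands apart, and its part in the differences between members was not tested.

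The starts of Dlg2, Dlg3 and Dlg4, the Dlg genes with no overlap between fractions, are shown as the 250 bases before the most upstream start of each in RefSeq (GRCm38.p6, plus strand). Capitals mark CANNTG, the E-box read by basic helix-loop-helix factors, of which the proneural factors are members.
Dlg2, chr7:91090536-91090785: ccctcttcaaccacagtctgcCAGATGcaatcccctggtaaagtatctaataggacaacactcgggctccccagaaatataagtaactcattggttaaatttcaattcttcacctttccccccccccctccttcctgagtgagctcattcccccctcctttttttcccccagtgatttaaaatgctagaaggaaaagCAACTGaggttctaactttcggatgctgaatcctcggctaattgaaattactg
Dlg3, chrX:100774245-100774494: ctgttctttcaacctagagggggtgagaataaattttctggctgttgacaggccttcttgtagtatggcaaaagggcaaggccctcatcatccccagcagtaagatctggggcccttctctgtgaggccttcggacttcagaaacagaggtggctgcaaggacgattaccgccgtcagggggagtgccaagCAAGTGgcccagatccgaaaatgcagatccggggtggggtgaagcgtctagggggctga
Dlg4, chr11:70016953-70017202: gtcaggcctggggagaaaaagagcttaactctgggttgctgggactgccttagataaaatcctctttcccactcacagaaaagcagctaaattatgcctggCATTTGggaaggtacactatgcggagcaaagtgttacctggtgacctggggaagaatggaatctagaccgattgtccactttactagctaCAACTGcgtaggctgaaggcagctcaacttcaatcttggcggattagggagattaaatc
The Dlg2 and Dlg4 stretches hold 2 E-boxes each and the Dlg3 stretch holds 1. Dlg1, whose fractions overlapped, is not printed, and the 250 bases before its most upstream start also hold 1. The table lists 16 starts for 7 of the 10 genes, with none for Dlgap2, Shank1 and Shank2, and 11 of the 16 hold a CANNTG on either strand, against 66.2% of 32851 mouse promoters of the same length. The narrower form CAGATG, which overlaps CANNTG, is in 2 of the 16 and in 14.4% of all promoters, and CAGCTG is in 1 of the 16 and in 13% of all. A match describes the letters only. The starts differed widely in composition, with 1 CpG in the 250 bases before 1 of the 3 Dlg2 starts and 31 before the start of Shank3.

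Among the Dlgap genes, Dlgap2 differed most between the fractions on the probe sets used. A second Dlgap1 probe set, described below, came close to it (0.89 against 0.91). The signals of Dlgap2 were 6.84, 6.06 and 6.50 in GFP+ cells on day 11, day 12 and day 13, against 5.44, 5.29 and 5.95 in GFP- cells. The fractions did not overlap, but the lowest GFP+ array was only 0.11 above the highest GFP- array. Its difference was 0.91 (1.87-fold, standard error 0.20, 95% interval 0.41 to 1.40) and did not pass the test (adjusted p = 0.10 from limma). Without day 12 it was 0.97 and passed (adjusted p = 0.046), a setting with 930 of all genes called higher. It did not pass without day 11 (0.66, adjusted p = 0.37) or without day 13 (1.09, adjusted p = 0.099), where 0 of all genes were called.

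Dlgap1 had signals of 8.04, 6.72 and 7.13 in GFP+ cells on the same days, against 7.11, 6.21 and 7.33 in GFP- cells. The groups overlapped, and the difference of 0.41 had an interval of -0.17 to 0.99 (adjusted p = 0.49 from limma). Dlgap3 was nearly level between the fractions, at 6.78, 6.35 and 6.85 in GFP+ cells and 6.89, 6.38 and 6.95 in GFP- cells. Its difference was -0.08, and the interval of -0.41 to 0.25 lies inside 2-fold in either direction (adjusted p = 0.80 from limma). Of the remaining Dlgap genes, which are not counted among the 10, Dlgap4 differed by 0.60 (adjusted p = 0.13). Dlgap5, which acts on the mitotic spindle and not at synapses, differed by -0.73 and had values of -0.85, -1.05 and -0.30 by day (adjusted p = 0.14). Dlg5, a further Dlg relative, differed by 0.22 (adjusted p = 0.71).

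Shank1 and Dlg2 had the 2 largest differences of the 10 genes, and their order changed with the setting. Without day 11 the difference was 1.25 for Shank1 and 1.29 for Dlg2, and after quantile normalization 1.16 and 1.23. The signals of Shank1 were 7.15, 7.13 and 6.92 in GFP+ cells on day 11, day 12 and day 13, against 5.89, 5.72 and 5.83 in GFP- cells. The lowest GFP+ array was 1.03 above the highest GFP- array, the widest gap among the scaffold genes, and the SD was 0.13 in GFP+ and 0.09 in GFP- cells (n = 3 each). The difference of 1.25 (2.38-fold, standard error 0.14) passed the test (adjusted p = 0.031 from limma), and by day it was 1.26, 1.41 and 1.09. The call was lost without day 13 (1.34, adjusted p = 0.053) and after median centring (1.31, adjusted p = 0.098), settings with 0 of all genes called. With no replicate block it held (adjusted p = 0.024). The call also held without only the day 13 GFP- array and with no replicate block (1.26, adjusted p = 0.019 from limma).

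Shank2 had signals of 6.42, 5.78 and 6.09 in GFP+ cells on those days, against 6.33, 5.92 and 6.32 in GFP- cells. Its difference was -0.09, with an interval of -0.45 to 0.26 (adjusted p = 0.79 from limma). Shank3, whose human gene is known from Phelan-McDermid syndrome, had signals of 5.99, 5.76 and 5.87 in GFP+ cells, against 5.60, 5.51 and 6.11 in GFP- cells. Its difference was 0.13, with an interval of -0.30 to 0.56 (adjusted p = 0.75 from limma). In both genes the fractions overlapped on the probe set used, and both intervals lie inside 2-fold. Another Shank2 probe set, described below, did not overlap.

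**Figure D2:**
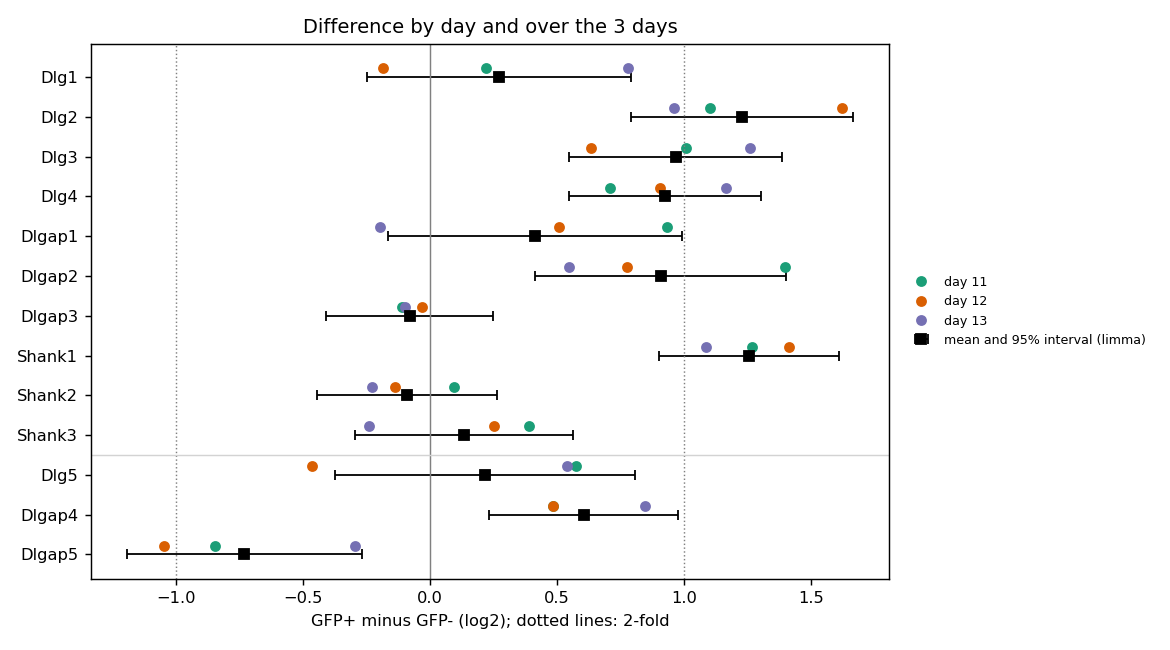
Log2 difference of GFP+ minus GFP- signal (x axis) for the 10 scaffold genes and, under the line, 3 further relatives (y axis). Coloured points are the days, and squares with bars are the mean and its 95% interval from limma. Shank1 (1.25) and Dlg2 (1.23) lie to the right of the 2-fold line, while Dlgap3, Shank2 and Shank3 lie near 0.

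Within families the daily differences were set against each other, in 12 pairs. Shank1 exceeded Shank2 by 1.17, 1.55 and 1.32 on day 11, day 12 and day 13, and Shank3 by 0.88, 1.16 and 1.33. Dlgap2 exceeded Dlgap3 by 1.51, 0.80 and 0.65, and Dlg3 exceeded Dlg1 by 0.79, 0.82 and 0.48. In 7 of the 12 pairs the gap had 1 direction on all 3 days, on the probe sets used. Dlgap2 over Dlgap1 is among them and depends on the probe set. The second Dlgap1 probe set, described below, had daily differences of 1.64, 0.39 and 0.64. Those of Dlgap2 were 1.40, 0.77 and 0.55, so with that probe set the gap changes sign between days. The pairs share genes, so they are not separate observations, and no such count was made for other gene pairs. With 3 days the exact two-sided sign-flip permutation test cannot go below p = 0.25, which those 7 pairs reached (adjusted p = 0.43 over the 12 pairs). This test could not pass for any size of gap, so it leaves the differences between members of a family undecided.

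Dlgap1 and Shank2 have more than 1 probe set, and these did not give the same picture. The probe set used for Dlgap1 lists 3 accessions, none of them a RefSeq NM transcript, while the second lists 14, of which 4 are NM transcripts. The second had signals of 7.06, 5.72 and 6.39 in GFP+ cells on day 11, day 12 and day 13, against 5.42, 5.33 and 5.76 in GFP- cells. Its difference of 0.89 was larger than the 0.41 of the probe set used and did not pass in a fit over all 28853 probe sets (adjusted p = 0.22 from limma). For Shank2 the 3 probe sets ran in different directions. The one used lists a single predicted transcript and differed by -0.09, the second lists the same predicted transcript and differed by -0.85 (adjusted p = 0.21), and the third, which lists 2 NM transcripts, differed by 0.33 (adjusted p = 0.54). The second had GFP- signals of 5.95, 5.94 and 6.97, so its day 13 GFP- array lay above the other GFP- arrays, while its GFP+ signals were 5.53, 5.36 and 5.43. Every GFP+ array of this probe set lay below every GFP- array. Its 95% interval of -1.46 to -0.23 reaches past 2-fold. The levels of different probe sets are not compared here.

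**Figure D3:**
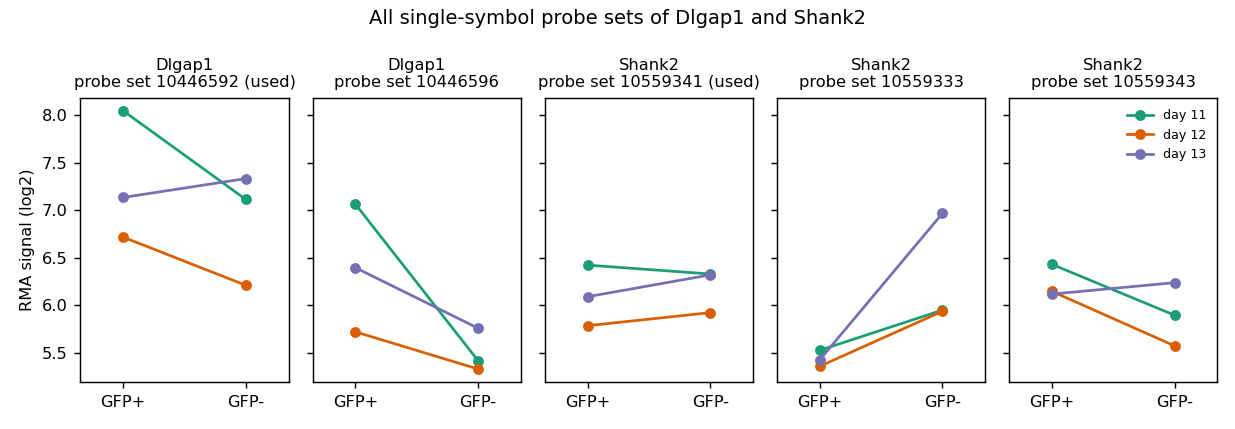
RMA signal (y axis, log2) of every probe set with the single symbol Dlgap1 or Shank2 by sorted fraction, GFP+ left and GFP- right (x axis), with lines joining the arrays of 1 day. The mean differences are 0.41 and 0.89 for Dlgap1 and -0.09, -0.85 and 0.33 for Shank2, in the order of the panels.

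The signals also varied with day. Dlgap1, Dlgap2, Dlgap3, Shank2 and Shank3 were lowest on day 12 in both fractions, as were 32.5% of all genes. After median centring of the arrays 4 scaffold genes and 15.5% of all genes had this order, and after a further quantile normalization 5 and 17.3%. The 4 Dlg genes and Shank1 did not share it. Whether the difference between the fractions moved with day was tested with an interaction of fraction and day. The interaction takes day as a number, so it follows only a steady change, and it leaves 2 residual degrees of freedom. By limma it passed for 0 of the 10 genes and 0% of all genes, and at an unadjusted p under 0.05 for 0 of the 10 and for 108 of all genes. The slope of the difference per day ran between -0.56 for Dlgap1 and 0.28 for Dlg1, with standard errors of 0.23 to 0.49 over the 10 genes.

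The genes that work with the scaffolds were counted in 4 lists, 64 genes in all. Of these, 7 passed the test as higher in GFP+ cells and 0 as lower (32 and 2 at an unadjusted p under 0.05 by limma, which 9.58% and 5.95% of all genes met), with a median difference of 0.47 beside the 0.66 of the scaffold genes. Of 16 glutamate receptor and auxiliary subunits, 4 were higher and 0 lower, with a median of 0.92. These were Gria1 (2.63) and Gria4 (2.16), subunits of AMPA receptors, Cacng2 (2.21), the auxiliary subunit stargazin that ties AMPA receptors to Dlg4, and the NMDA receptor subunit Grin2b (1.77). The study picked Grin2b on these arrays and then excluded it together with Dlg2, and it is named here after its value was seen. Of 22 other scaffolds and adaptors, Dlgap4 among them, 1 was higher. It was Lrrc7, or densin, a scaffold that binds Shank proteins and the kinase CaMKII, at 7.44 ± 0.23 in GFP+ and 5.11 ± 0.05 in GFP- cells (SD, n = 3 each), a difference of 2.32 (standard error 0.16, adjusted p = 0.024 from limma). Of 13 enzymes and signalling proteins, 2 were higher, the CaMKII subunit Camk2b (1.62) and Agap2, a GTPase-activating protein (1.41), while the median of the list was 0.22 and 6 of its genes were negative. Of 13 adhesion ligands 0 passed by limma, against 5 higher at an unadjusted p under 0.05, and their median was 0.37.

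**Figure D4:**
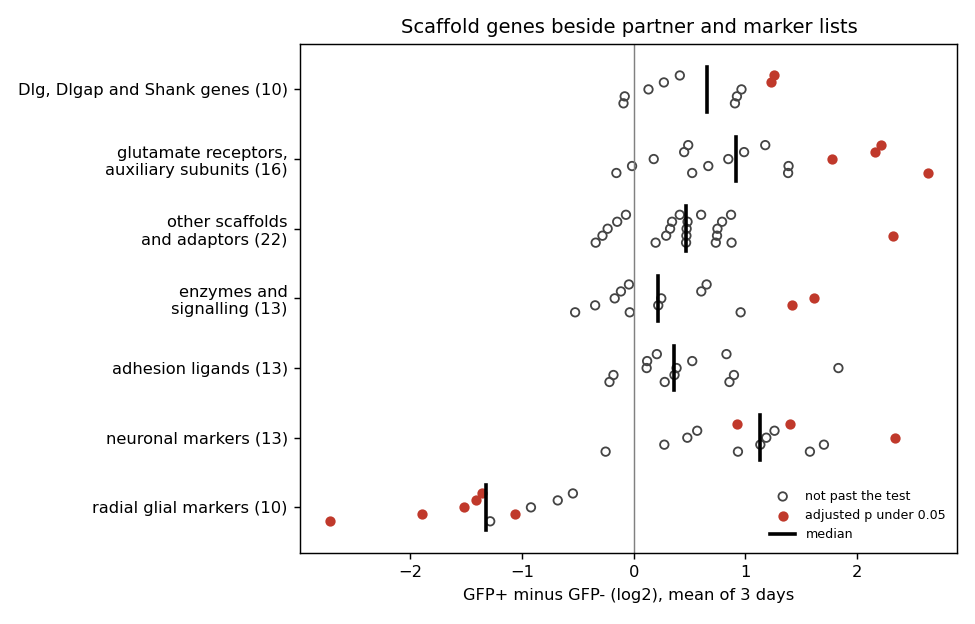
Log2 difference of GFP+ minus GFP- signal, mean of 3 days (x axis), for single genes of 7 lists (y axis, gene numbers in parentheses). Points are genes, filled where the adjusted p from limma was under 0.05, and bars are medians. The scaffold genes have a median of 0.66, between those of the adaptors (0.47) and of the glutamate receptors (0.92). The enzymes and signalling proteins have a median of 0.22, and the radial glial markers lie at -1.32.

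By likeness of signal over the 6 arrays, the genes closest to Shank1 were Plcl2 (Pearson r = 0.999), Magee2 (0.996) and Lrrc7 (0.995). Those closest to Dlg2 were Fam110b (0.991), Atp2b2 (0.989) and Pnoc (0.988). The arrays share the contrast between fractions, so these values describe a pattern over 6 arrays and no more.

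Markers of other cells moved with the fractions. Of 13 general neuronal markers 3 were higher and 0 lower in GFP+ cells, with a median of 1.13, and their mean signal was 8.97 to 9.34 on the GFP+ arrays and 7.40 to 8.46 on the GFP- arrays. Of 10 radial glial and progenitor markers 6 were lower and 0 higher, with a median of -1.32, and their mean signal was 7.44 to 7.99 on the GFP+ arrays and 8.78 to 9.31 on the GFP- arrays. Of 9 interneuron markers 7 were higher, with a median of 2.50, while of 7 deep-layer cortical markers Bcl11b alone was higher and the median was 0.49. The cells were sorted on the reporter of Bcl11b, and the study picked the interneuron marker Erbb4 on these same arrays. Neither rise is independent evidence. Of 9 markers of dividing cells 0 passed by limma, with 7 lower at an unadjusted p under 0.05 and a median of -0.83. The lists for astrocytes and oligodendrocytes, epithelium, mesenchyme, endothelium and microglia, and pluripotent cells had 0 genes past the test by limma (at an unadjusted p under 0.05, 1 astrocyte or oligodendrocyte gene was higher and 2 were lower, and 1 endothelial or microglial gene was lower), medians of -0.25 to -0.03, and mean signals of 4.58 to 6.24 on single arrays. The labels call the cells cortical progenitors, and of the deep-layer list no gene but Bcl11b differed past the test. The part of cell composition in the differences of the scaffold genes was not tested.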

How the data were processed

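The authors deposited log2 signals of 28853 probe sets, calculated with RMA16 in GeneSpring from GeneChip Mouse Gene 1.0 ST arrays. The annotation version, genome build, any filter and whether the 6 arrays were normalized together: not given in the sources used here. RMA draws the arrays toward 1 distribution, yet their medians ran from 5.32 to 5.52. Of the probe sets, 21789 had 1 symbol in the platform annotation, and these gave 19938 genes.

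limma 3.58.1 in R 4.3.3 was fitted with fraction and day as factors and eBayes over all 19938 genes, with no filter on dim probe sets. The pairing comes from the day in the labels, and the deviations from the fraction mean of the 2 arrays of a day correlated at 0.112, 0.558 and 0.368 across genes. P-values measure the spread between days, which eBayes draws toward the variance of all genes. The fit has 2 residual and 3.80 prior degrees of freedom. The labels do not say that the days are separate cultures. The fit was tested on simulated data with independent noise for each array. That simulation had no day effect and no array that stands apart, so it does not cover these features. Named are all 10 scaffold genes, their 3 relatives, up to 3 genes per partner list by size among those past the test (Grin2b was added after its values were seen), the 3 genes most like each of the 2 members with the largest difference, and Bcl11b. Erbb4 is named because the study picked it on these arrays. The members and lists were chosen with earlier results of these data known. Of 68 listed partner genes 64 were analysed here. Promoters come from RefSeq, GRCm38.p6.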

Additional observations from a re-analysis of the deposited data

Results flagged for a closer look

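In 4 of the 10 scaffold genes the difference between GFP+ and GFP- cells had opposite signs on different days. With 1 array per fraction and day, the change of sign itself was not tested. The slope with day passed for 0 of all genes and follows only a steady change, so it cannot decide this. Over all genes 61.6% had opposite signs. For Dlg1 the difference was 0.22, -0.19 and 0.78 on day 11, day 12 and day 13. For Dlgap1 it was 0.93, 0.51 and -0.20, for Shank2 it was 0.093, -0.14 and -0.23, and for Shank3 it was 0.39, 0.25 and -0.24. These values are of the probe sets used. The second Dlgap1 probe set was higher on all 3 days (1.64, 0.39 and 0.64). The second Shank2 probe set was lower on all 3 days (-0.42, -0.58 and -1.54), and the third changed sign (0.53, 0.57 and -0.12). The negative values of Dlgap1 and Shank3 and the largest value of Dlg1 fall on day 13, where the GFP- array stands apart from the rest.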

How the results depend on the processing

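Under the 12 alternatives run on each gene, Dlg1, Dlg3, Dlg4, Dlgap1, Dlgap2, Shank1, Shank2, Shank3 and Dlg2 kept their direction, while Dlgap3 turned to 0.024 when the day 13 GFP- array was dropped from a fit with no replicate block. Over these alternatives the difference ran between 0.0091 and 0.50 for Dlg1, 0.15 and 0.72 for Dlgap1, -0.20 and -0.022 for Shank2, and 0.0050 and 0.32 for Shank3. Of these 12 alternatives the test was passed in 9 for Shank1 and in 8 for Dlg2. The methods' t-test named below is Student's t-test, which the paper states for its in vitro and in vivo experiments. For the arrays the paper names no test and gives only a limit of more than 2-fold. The number of scaffold genes called higher, 2, was 1 with no replicate block, 0 after median centring and 0 by the methods' t-test with Benjamini-Hochberg adjustment. It was 4 with a filter at the 20th percentile, 5 with a filter at the median of all values, 4 with a trended and robust eBayes and 5 by the methods' t-test at its own threshold. With no replicate block and without only the day 13 GFP- array it was 2, again Dlg2 and Shank1. Leaving out 1 day gave 0 to 5 such genes, with 0 without day 13, 2 without day 11 and 5 without day 12, and a median difference of 0.48 to 0.76. That median was 0.41 after a further quantile normalization. For Bcl11b the difference was 1.92 after median centring, 1.59 after quantile normalization and 1.87 by the methods' t-test, each no longer past the threshold, and 1.64 to 1.99 with 1 day left out (adjusted p = 0.056 without day 13). Of the partner genes, 7 called higher became 0 after median centring, 4 after quantile normalization, 11 and 17 with the filters, 13 with a trended and robust eBayes, 0 by the methods' t-test after adjustment and 17 higher and 3 lower at its own threshold. Leaving out 1 day gave 0 to 18 partner genes called and 10 to 18 over 2-fold higher. Without only the day 13 GFP- array and with no replicate block, 8 partner genes were called higher. In a fit over probe sets Dlg2 had an adjusted p of 0.056, and the third Shank2 probe set turned the direction to 0.33. Over all genes 159 were called higher and 113 lower, against 84 and 41 with no replicate block, 381 and 171 without day 11, 930 and 229 without day 12, 0 and 0 without day 13 or after median centring, 0 and 0 by the adjusted methods' t-test, 966 and 790 at its own threshold, 52 and 99 after quantile normalization, 342 and 208 with the filter at the 20th percentile, 693 and 337 with that at the median, and 549 and 510 with a trended and robust eBayes. Without only the day 13 GFP- array and with no replicate block, 202 of all genes were called higher and 114 lower. The filters test fewer genes. For the other settings the cause was not tested. The number of arrays and the closeness of dim signals to background limit these values.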
